A study of Mus musculus with 4 samples.

Results

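The carboxylesterases listed for this account are 10 mouse genes, Ces1c, Ces1d, Ces1e, Ces1f, Ces1g, Ces2a, Ces2b, Ces2c, Ces2e and Ces3a, whose liver RNA was compared between female mice given siRNA against Cux2 and female mice given a non-specific siRNA. A gene was counted as measured when a probe of the array carried its RefSeq accession. Of the 10 genes, 9 were measured, through 14 of the 41174 non-control probes, and they stand beside 25090 genes tested in all. No probe carried the accession of Ces3a, so it has no value here. The genes were chosen by family name with their treated over control log2 ratios on these arrays in view, so those ratios are a description and carry no test.

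All mice were females of the outbred CD-1 strain, 8 wk old per the labels. The treated groups received Cux2 siRNA and were killed 5 days later (5 mice in pools of 3 and 2) or 8 days later (4 mice in pools of 2), and the control group received non-specific siRNA (13 mice in pools of 6 or 7 by the series description, against pools of 6 in each sample description). Every animal therefore carried an siRNA and its delivery, and the route and the day on which control mice were killed are not given in the sources used here. Each of the 4 arrays held 1 treated and 1 control liver pool, labelled with Alexa 647 (red) and Alexa 555 (green). The treated pool was red on replicate 1 of each day and green on replicate 2. The control pools recur on both days and the labels do not say which pool each array carried, so treated pool, control pool and dye cannot be told apart between the replicates of a day. A pool is 1 sample, and in whole liver fewer cells of a type and less RNA per cell cannot be told apart.

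Carboxylesterases are serine hydrolases, most of them held in the endoplasmic reticulum, that cleave ester, thioester and amide bonds in drugs, pesticides and lipids. Liver is the organ best known for them, and the mouse carries many more copies than other mammals, arranged as neighbouring genes of the Ces1 and Ces2 groups. Cux2 is a homeodomain factor of female liver known chiefly for repressing genes that are higher in males.

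In the gene table used here, which follows GRCm38.p6, the carboxylesterase genes lie on chromosome 8 in the order Ces1a, Ces1b, Ces1c, Ces1d, Ces1e, Ces1f, Ces1g, Ces1h, Ces5a, Ces2a, Ces2b, Ces2c, the pseudogene Ces2d-ps, Ces2e, Ces2f, Ces2g, Ces2h, Ces3a, Ces3b and Ces4a. RefSeq upstream sequence on that build was at hand for 6 of the 10 genes. It is shown for Ces1e and Ces1g, the Ces1 genes with the highest ratios, and for Ces2a and Ces2c, the most alike pair of the Ces2 group, as the 250 bases that end just before the transcription start, 5′ to 3′ on the gene's own strand. Capitals mark every match to the motifs searched.
Ces1e, chr8:93229620-93229869, minus strand: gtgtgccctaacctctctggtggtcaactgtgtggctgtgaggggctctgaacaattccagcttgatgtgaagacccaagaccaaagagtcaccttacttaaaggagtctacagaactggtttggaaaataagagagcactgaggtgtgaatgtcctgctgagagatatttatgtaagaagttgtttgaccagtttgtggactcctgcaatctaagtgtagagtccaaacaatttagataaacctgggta
Ces1g, chr8:93337210-93337459, minus strand: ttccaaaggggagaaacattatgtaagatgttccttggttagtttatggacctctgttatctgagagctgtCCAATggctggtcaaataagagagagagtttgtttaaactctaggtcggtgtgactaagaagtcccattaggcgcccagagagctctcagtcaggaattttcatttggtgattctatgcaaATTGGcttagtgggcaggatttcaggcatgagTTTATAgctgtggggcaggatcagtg
Ces2a, chr8:104733753-104734002, plus strand: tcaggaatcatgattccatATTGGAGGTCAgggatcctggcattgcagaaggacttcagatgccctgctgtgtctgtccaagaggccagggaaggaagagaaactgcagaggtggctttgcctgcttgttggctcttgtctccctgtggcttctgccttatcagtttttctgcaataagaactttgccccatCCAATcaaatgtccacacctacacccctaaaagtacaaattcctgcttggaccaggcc
Ces2c, chr8:104846818-104847067, plus strand: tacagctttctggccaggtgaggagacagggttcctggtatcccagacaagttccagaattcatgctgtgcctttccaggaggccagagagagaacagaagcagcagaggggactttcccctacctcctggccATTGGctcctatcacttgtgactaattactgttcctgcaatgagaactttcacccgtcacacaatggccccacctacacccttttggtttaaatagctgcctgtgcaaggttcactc
In a global alignment the Ces2a and Ces2c windows shared 175 of 250 bases (70.0%). Ces1e and Ces1g shared 150 (60.0%), which lies within the 58.0% to 62.0% seen between a Ces1 and a Ces2 window over 9 pairs.

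The motifs were sought on both strands of the same 250 bases in all 32851 RefSeq windows, and a match describes letters only. The hexamer AGGTCA, the core recognised by many nuclear receptors, was in 14% of all windows and in 1 of the 6, that of Ces2a, where it begins 226 bases before the start. A match to CCAAT on the opposite strand lies directly before it. CCAAT was in 33.8% of all windows and in 4 of the 6 (Ces1c, Ces1g, Ces2a and Ces2c). TATAAA was in 12.4% of all windows and in that of Ces1g, on the opposite strand. Neither ATCGAT, a core associated with Cut-type factors (0.728% of all windows), nor ATTGAT, a core of Onecut factors (6.72%), was in any of the 6, nor were the STAT palindrome TTCNNNGAA (7.02%) and the forkhead core TGTTTAC (3.17%). The Ces1e window held none of the motifs, although that gene had the highest ratio of the 9.

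Median spot signals per array and channel were 381.5 to 471.5 over background medians of 306 to 342, between 71.5% and 74.9% of probes were well above background, and 0 spots were saturated. Cux2, the targeted gene, had log2 treated over control ratios of -1.91 and -1.70 at day 5 and -1.07 and -1.20 at day 8, and it fell on both days (day 5 mean -1.81, SE 0.09, limma adjusted p 0.00298, and day 8 mean -1.13, SE 0.09, limma adjusted p 0.00700). Without background subtraction its mean over both days was -0.96 in place of -1.47. The limma fit called 4216 genes at day 5 (16.8% of those tested), 3594 at day 8 (14.3%) and 7796 over both days (31.1%) at an adjusted p under 0.05. For the difference between the days it called 0 genes, with 620 at an unadjusted p under 0.05. Of 12 hepatocyte markers 10 were measured, all above background in all 8 channel readings. So were 11 of the 12 measured exocrine pancreas markers, so being above background does not tell these tissues apart. Summed levels were at least 1324600 for the hepatocyte markers and at most 82809 for the exocrine pancreas markers in any channel.

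The carboxylesterases were, with few exceptions, more abundant in the Cux2 siRNA pools. Values below are log2 ratios of treated over control within a spot, so 1 is a doubling, and where a gene had several probes the brightest stands for it. The mean over both days was above 0 for 9 of 9 genes, beside 12764 of the 25090 genes tested. It was above 1 for 4 of the 9, Ces1e, Ces2b, Ces2c and Ces1g, whereas 0.65% of all genes tested reached 1. The median of the 9 was 1.01 and 1.13 on the day 5 arrays and 1.15 and 1.18 on the day 8 arrays, against medians of all genes within 0.01 of 0. On all 4 arrays the ratio was above 0 for 8 of the 9, all but Ces1c, beside 26.4% of all genes.

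**Figure D1:**
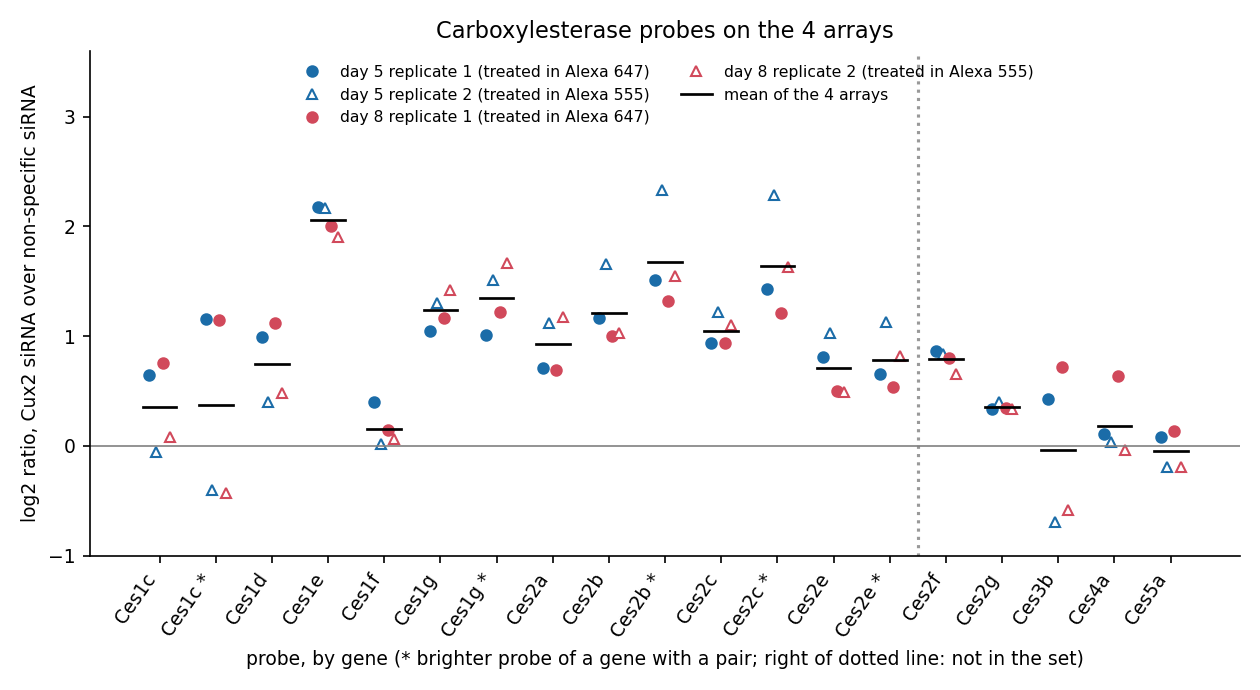
Log2 ratio of Cux2 siRNA over non-specific siRNA (vertical axis) for each probe of the 9 measured genes and, right of the dotted line, of the other carboxylesterases (horizontal axis, an asterisk marking the brighter probe of a pair). Each point is 1 array, with days by colour and dye orientation by marker, and the bar is the mean of the 4 arrays. Ces1e lies between 1.90 and 2.18 on the 4 arrays, while the brightest Ces1c probe lies on both sides of 0.

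Among the Ces1 genes, Ces1e stood highest. Ces1e is egasyn, the esterase that holds β-glucuronidase in the endoplasmic reticulum. Its log2 ratio was 2.18 and 2.16 at day 5 and 2.00 and 1.90 at day 8. The 4 values span a narrow range, and both dye orientations gave the same size. The mean was 2.17 at day 5 (SE 0.07, 4.50-fold) and 1.95 at day 8 (SE 0.07, 3.87-fold), and over both days Ces1e ranked 9 of the 14062 genes with a symbol. Its log2 level in the treated channel was 16.09, 16.54, 15.73 and 16.26, and in the control channel 13.92, 14.38, 13.72 and 14.36, taking the arrays in the order day 5 replicates 1 and 2, then day 8 replicates 1 and 2, as in all lists of 4 values here. The lowest treated level lies above the highest control level.

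Ces1g, an esterase of lipid handling in liver, followed with ratios of 1.01, 1.51, 1.22 and 1.67. Replicate 2, with the treated pool in green, was the higher array on both days. The mean over both days was 1.35 (SE 0.12, 2.55-fold), rank 36, and a second probe gave 1.05, 1.31, 1.17 and 1.42 with a mean of 1.24. Both probes of Ces1g thus placed all 4 arrays above 1.

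Ces1d, the triacylglycerol hydrolase that mobilises stored lipid for lipoprotein secretion, had ratios of 0.99, 0.40, 1.12 and 0.48. Here replicate 1, with the treated pool in red, was the higher array on both days. The mean over both days was 0.75 (SE 0.15, 1.68-fold), and treated levels of 17.52 to 17.66 did not overlap control levels of 16.54 to 17.15. Ces1f, a related lipid hydrolase also called TGH-2, had ratios of 0.40, 0.01, 0.14 and 0.07 and a mean of 0.15 (SE 0.08, 1.11-fold), the smallest of the set. The gene lies between Ces1e and Ces1g, the Ces1 genes with the highest ratios, and its treated levels (15.59 to 15.90) overlapped its control levels (15.45 to 15.83).

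Ces1c, the esterase secreted to blood plasma, changed sign with the dyes. Its ratio was 1.16 and -0.40 at day 5 and 1.15 and -0.43 at day 8. The replicates with the treated pool in red were high and those with it in green were low on both days. The mean of 0.37 over both days (SE 0.36) was about as large as its error. That mean ran from -0.03 to 0.76 when 1 array was left out, which left the dyes unbalanced. The second probe gave 0.64, -0.05, 0.76 and 0.08, with a mean of 0.36.

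All 4 measured Ces2 genes of the set were above 0 on every array and through every probe. Of all genes, 26.4% were above 0 on every array. Ces2b had ratios of 1.51, 2.33, 1.32 and 1.55 and Ces2c, known as an acylcarnitine hydrolase, had 1.43, 2.28, 1.21 and 1.63. In both genes day 5 replicate 2 was the highest array. The mean of Ces2b was 1.92 at day 5 (SE 0.20, 3.78-fold) and 1.43 at day 8 (SE 0.20, 2.70-fold), and that of Ces2c was 1.86 (SE 0.23, 3.62-fold) and 1.42 (SE 0.23, 2.68-fold). They ranked 15 and 17 over both days. The dimmer probes gave smaller ratios, 1.17, 1.66, 1.00 and 1.03 for Ces2b and 0.93, 1.22, 0.94 and 1.10 for Ces2c. The size of these 2 genes' ratios therefore depends on the probe, with means over both days of 1.68 and 1.21 for Ces2b and of 1.64 and 1.05 for Ces2c.

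Ces2a, an esterase of drugs and neutral lipids, had ratios of 0.71, 1.12, 0.69 and 1.18, a mean over both days of 0.92 (SE 0.11, 1.90-fold) and rank 130. Ces2e had ratios of 0.66, 1.13, 0.54 and 0.82, a mean of 0.78 (SE 0.10, 1.72-fold) and rank 194, and its second probe gave 0.81, 1.02, 0.50 and 0.49. Both genes had smaller ratios than Ces2b and Ces2c on all 4 arrays when the brightest probes are set side by side. Probe sequences were not used here, so how far a probe of this family also binds RNA of its neighbours was not tested.

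**Figure D2:**
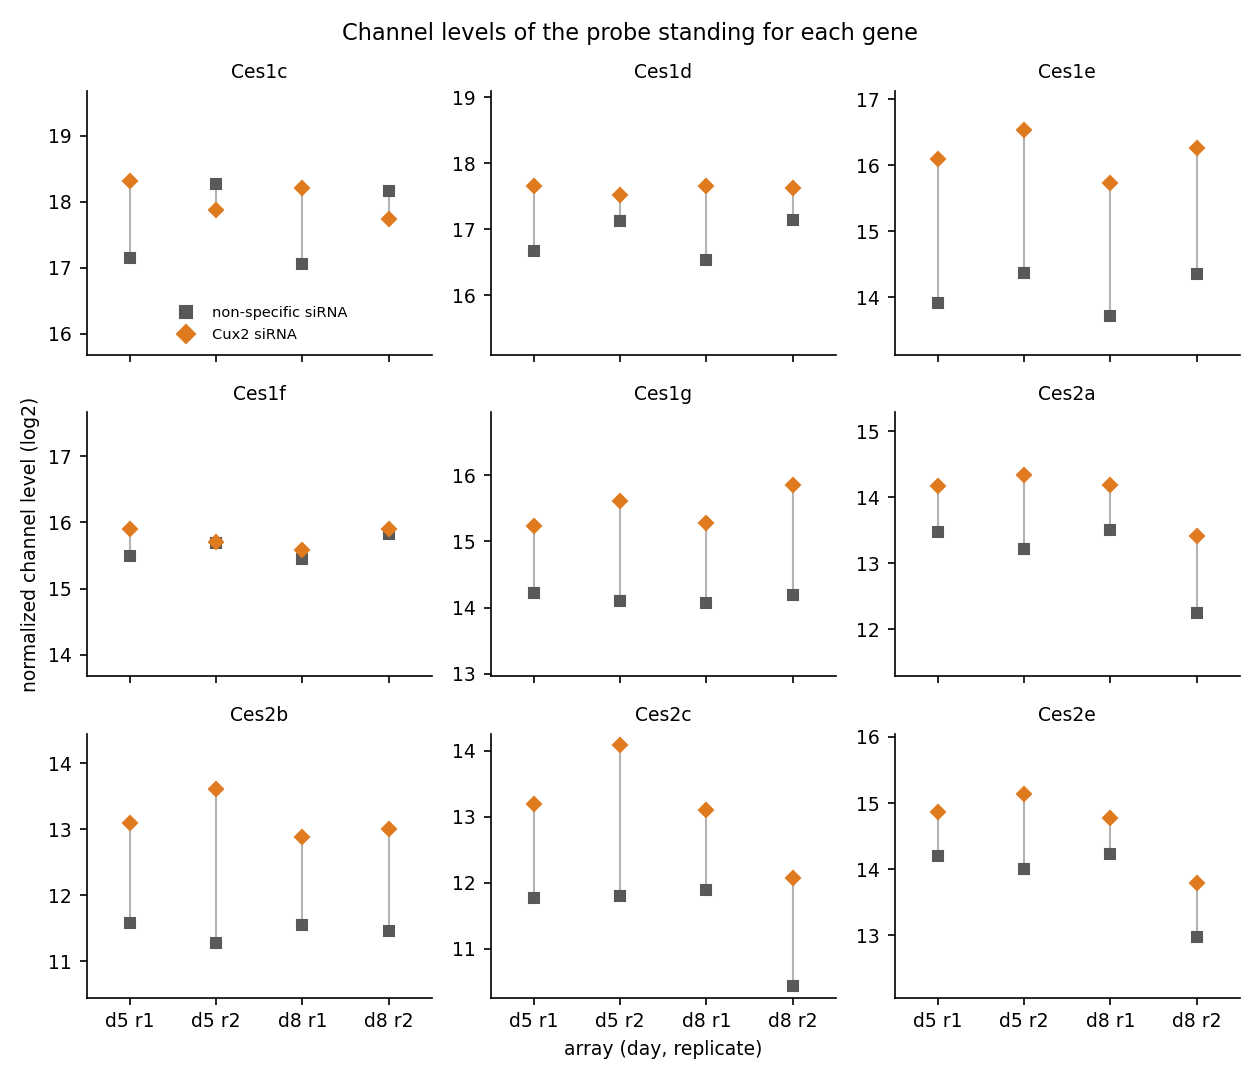
Log2 normalised channel level (vertical axis) of the 9 carboxylesterases, 1 panel a gene, on each array (horizontal axis, day and replicate), with grey squares for the control pool, orange diamonds for the treated pool and a line joining the channels of 1 array. For Ces1e every treated level is above every control level, and for Ces1c the treated level is above on both replicates 1 and below on both replicates 2.

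Treated and control levels did not overlap over the 4 arrays for 5 of the 9 genes (Ces1d, Ces1e, Ces1g, Ces2b and Ces2c), with treated above control, as for 13.9% of all genes (15.4% had control above treated). On day 8 replicate 2 both channels were low for the brightest probes of Ces2a, Ces2c and Ces2e. Their mean level lay 0.98, 1.38 and 1.16 on the log2 scale below the mean of the other arrays. The other probes of Ces2c and Ces2e were not low there (deviations of 0.09 and -0.05). On that array 2.53% of the 31764 kept probes lay at least 1 below, against 0.0819% to 0.661% on the others. The ratio is taken within a spot, and that array gave Ces2a 1.18, Ces2c 1.63 and Ces2e 0.82.

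By the count of genes past an adjusted p under 0.05 in the limma fit, with nothing read from it, 6 of the 9 were past as rises at day 5 (7.38% of all genes rose), 6 at day 8 (6.27%) and 7 over both days (14.8%). As falls, 0 were past, where 9.43%, 8.06% and 16.3% of all genes fell. The genes not past were Ces1c and Ces1f in all 3 counts, and Ces1d on the single days. With an array left out the count at day 5 was 2 without its replicate 2, where 0.247% of all genes rose. At day 8 it was 2 without its replicate 1 (0.881% of all genes) and 1 without its replicate 2 (0.0917%). Each of these runs left its day with 1 dye orientation only. Median centring in place of loess left 0 at day 5 (0.00399% of all genes rose), 0 at day 8 (0%) and 3 over both days (0.347%). It turned the direction of no mean of the 9. Without background subtraction 3 were past at day 5 (5.67% of all genes rose) and 2 at day 8 (4.09%). The scanner's processed signals gave 5 (3.8%) and 3 (2.65%), and the authors' log10 ratios 5 (3.8%) and 3 (2.63%). Each of these settings left 7 over both days (12.7%, 14.8% and 14.8%).

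From day 5 to day 8 the ratio differed by -0.49 for Ces2b (SE 0.29), -0.43 for Ces2c (SE 0.32), -0.22 for Ces1e (SE 0.10) and -0.21 for Ces2e (SE 0.20). Differences for the other 5 genes lay between -0.10 and 0.18, each smaller than its SE. The days share their control pools, so the values stand side by side only.

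The gap between the dye orientations set the Ces1 genes apart from one another. Taken as replicate 1 minus replicate 2 and averaged over the days, the gap was 1.57 for Ces1c, 0.62 for Ces1d and 0.23 for Ces1f. It was 0.06 for Ces1e, and below 0 for Ces2e (-0.37), Ces2a (-0.45), Ces1g (-0.47), Ces2b (-0.52) and Ces2c (-0.64). The first 3 were among the brightest spots, in the 99.9, 99.7 and 98.2 percentiles of mean intensity. In the brightest 1% of genes (251 genes) the median gap was 0.60 at day 5 and 0.60 at day 8. That group holds Ces1c and Ces1d but not Ces1f, whose brightness bin (377 genes) had a median gap of 0.09 averaged over the days. Below the 5th percentile of their brightness bins lay Ces1g and Ces2a (each -0.42) and Ces2b and Ces2c (-0.37). The other measured genes of the set lay between the 5th and 95th percentiles of theirs. Albumin (Alb), the main plasma protein made by hepatocytes and no carboxylesterase, had ratios of 0.82, -0.77, 0.92 and -0.64, the same alternation as Ces1c. All 8 channel readings of Ces1c, Ces1d and Ces1f were scaled up from a low-gain scan. The 825 genes with 8 such readings had median gaps of 0.14 at day 5 and 0.12 at day 8. The parts of brightness and of low-gain reading in the Ces1c, Ces1d and Ces1f ratios were not tested.

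**Figure D3:**
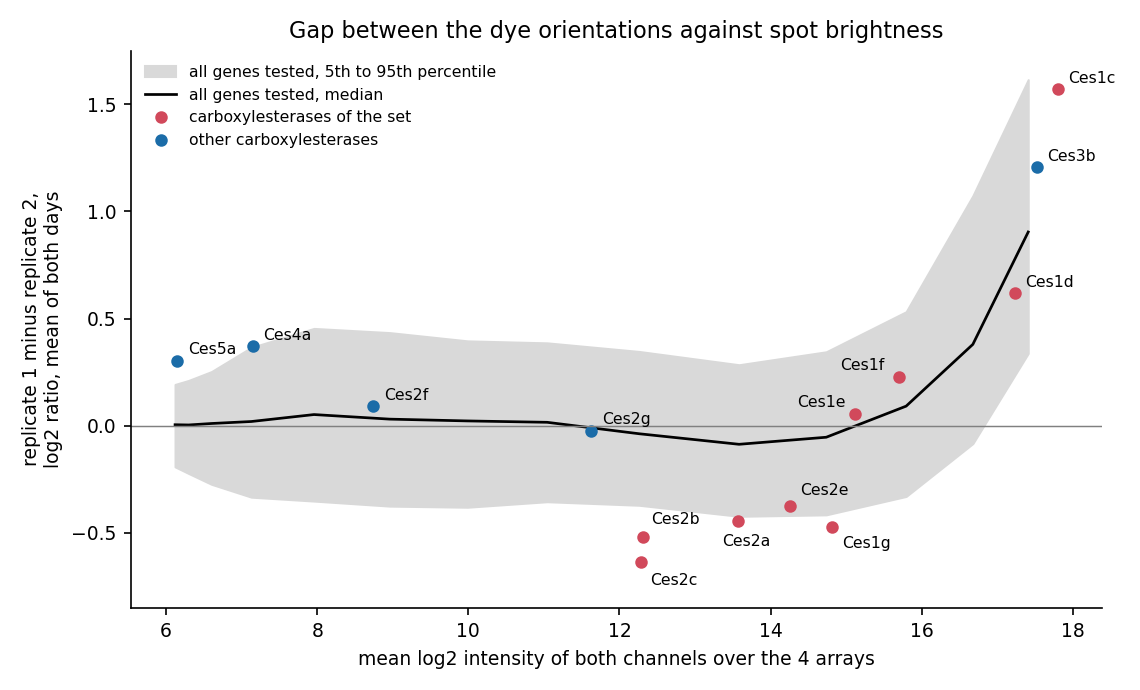
Gap between the dye orientations (replicate 1 minus replicate 2, mean log2 ratio of both days, vertical axis) against mean log2 intensity (horizontal axis) for the measured carboxylesterases, with the median and the 5th to 95th percentile of all genes tested by brightness bin. Ces1c (1.57) and Ces3b (1.21) sit at the bright end, where the median of all genes also rises.

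The normalization within an array changed the single arrays of the bright Ces1 genes more than their means. Centred on the array's median in place of loess, Ces1d gave 1.72, -0.29, 1.88 and -0.17, so that its replicate 2 arrays turned sign, and its mean was 0.78 beside 0.75 with loess. Ces1f likewise gave 0.99, -0.57, 0.73 and -0.49, and Ces1c 1.95, -1.13, 1.97 and -1.12. Ces1e widened to 2.70, 1.59, 2.50 and 1.38 with a mean of 2.05. Ces1g and the 4 Ces2 genes were above 0 on all 4 arrays under this normalization too.

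**Figure D4:**
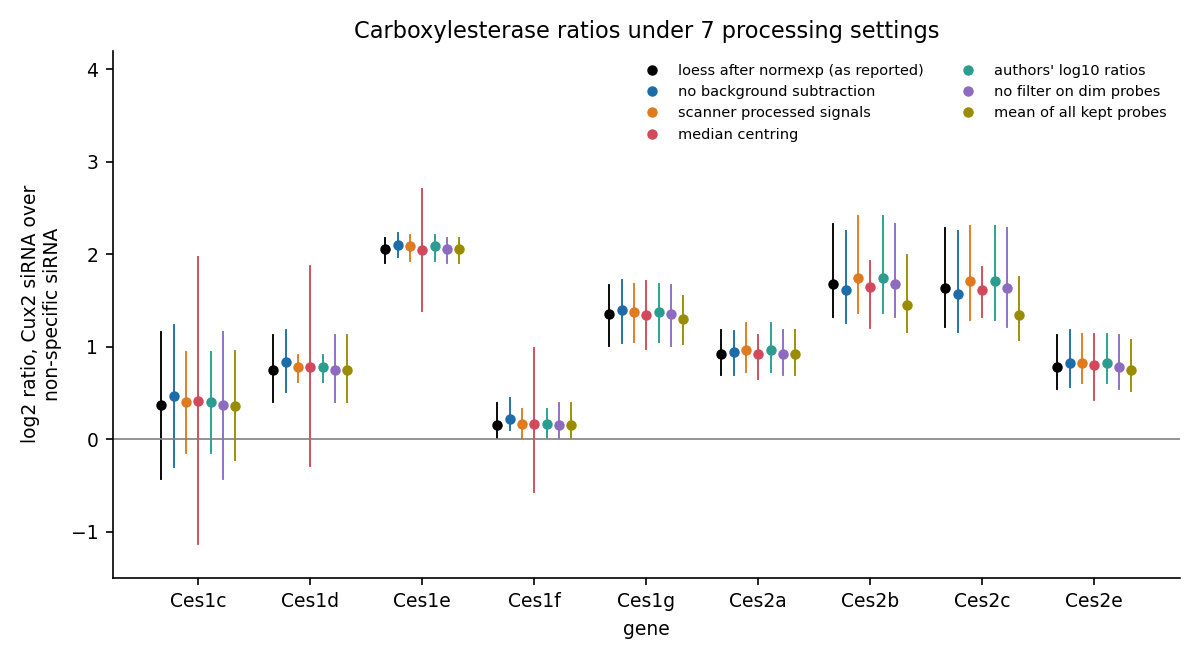
Mean log2 ratio over the 4 arrays (points, vertical axis) of the 9 carboxylesterases (horizontal axis) under 7 processing settings by colour, with lines from the lowest to the highest array. The means of Ces1e lie between 2.05 and 2.10 under these settings, and its lines are longest with median centring (1.38 to 2.70).

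Of the 10 other mouse carboxylesterase genes 5 had a probe. Ces2f and Ces2g, which neighbour Ces2e, had ratios of 0.87, 0.83, 0.80 and 0.65 (mean 0.79) and of 0.34, 0.40, 0.35 and 0.33 (mean 0.35), above 0 on all 4 arrays. The Ces2f mean was 0.49 without background subtraction and 0.99 with the authors' log10 ratios. With Ces2f and Ces2g counted, 6 of 6 measured Ces2 genes were above 0 on all 4 arrays, beside 26.4% of all genes. Ces3b, the measured neighbour of Ces3a, had 0.42, -0.69, 0.71 and -0.59, with a mean of -0.03 and signs that followed the dyes as in Ces1c. Ces4a had ratios of 0.11, 0.04, 0.63 and -0.04, and Ces5a, which lies between the Ces1 and Ces2 genes, had 0.09, -0.20, 0.13 and -0.19 at levels above background in 4 of 8 readings. These 3 were on both sides of 0, and their means moved with the processing, that of Ces4a from 0.06 to 0.35 and that of Ces5a from -0.50 to -0.01.

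Hydrolases outside the family did not share a direction. Of 34 measured other ester and lipid hydrolases 5 rose, 9 fell and 20 did not pass over both days, with a median of -0.06. Of all genes 14.8% rose and 16.3% fell, with a median of 0.00. When arrays were centred on their median instead of by loess, the calls of Pnpla3, Abhd3, Cyp2c55 and Gsta2 remained and those of the other list genes named in this and the following comparisons were lost. Pnpla3, a lipase of lipid droplets, rose by 1.73 on the log2 scale (SE 0.10, limma adjusted p 0.00145). Abhd3, a phospholipase, had a mean of -1.44 (SE 0.09, limma adjusted p 0.00172), and Abhd2, another hydrolase of that fold, -0.97 (SE 0.09, limma adjusted p 0.00315). Lipoprotein lipase (Lpl) had -1.23 (SE 0.26, limma adjusted p 0.0254), a call that was lost without day 5 replicate 1 or without day 5 replicate 2. It was also lost without background subtraction, with the scanner's processed signals and with the authors' log10 ratios.

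Genes of triglyceride storage and secretion, the route Ces1d serves, were split. Among 27 genes 8 rose (14.8% of all genes), 8 fell (16.3%) and 11 did not pass, with a median of -0.07. G0s2, the inhibitor of adipose triglyceride lipase, rose by 1.32, and Plin5, a lipid droplet coat protein, by 1.00. Lpin1, a phosphatidate phosphatase, had a mean of -1.32 and Soat1, which esterifies cholesterol, -0.77 (-0.44 without background subtraction). Mttp, which loads lipid onto apolipoprotein B, had -0.40. Plin5 was also among the 5 genes with a symbol whose 4 ratios lay nearest to the median profile of the carboxylesterases, at a Euclidean distance of 0.230 on the log2 scale over 4 arrays, after Ttc41 (0.118), Pkdcc (0.185) and Plk5 (0.203) and before Hpdl (0.254).

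Several carboxylesterases are known targets of the xenobiotic receptors CAR (Nr1i3) and PXR (Nr1i2). Of 30 genes listed for these receptors 13 rose (14.8% of all genes), 4 fell (16.3%) and 13 did not pass, with a median of 0.28. Cyp2c55, a cytochrome P450, rose by 1.57 (SE 0.11, limma adjusted p 0.00206), and the glutathione transferases Gsta2, Gsta1 and Gstm1 by 1.28, 1.02 and 1.02. Cyp2b10, the usual marker of CAR activity, rose by 0.28 (SE 0.05, limma adjusted p 0.0160), a call lost when any 1 array was left out. Cyp3a11, the usual marker of PXR activity, had ratios of 0.28, -0.54, 0.51 and -0.68, a sign that followed the dyes, and did not pass (limma adjusted p 0.774). Cyp2b9, a female-biased P450 also under CAR, had a mean of -0.63 (SE 0.07, limma adjusted p 0.00571).

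Among 24 nuclear receptors and liver factors 9 rose (14.8% of all genes), 4 fell (16.3%) and 11 did not pass. Nr1i3 itself rose by 0.76 (SE 0.11, limma adjusted p 0.00942) and Nr1i2 by 0.41 (SE 0.06, limma adjusted p 0.0113), the latter call lost without day 5 replicate 2. The oestrogen receptor Esr1 rose by 0.94. Stat5b, which carries the growth hormone signal, had -0.53 (SE 0.10, limma adjusted p 0.0179), a call lost without day 5 replicate 1 or replicate 2, without background subtraction, with the scanner's processed signals and with the authors' log10 ratios.

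Of 11 genes that retain carboxylesterases in the endoplasmic reticulum or work beside them there, 2 rose, 5 fell and 4 did not pass. Of all genes 14.8% rose and 16.3% fell. Gusb, the β-glucuronidase that egasyn (Ces1e) binds, had ratios of -0.56, -0.80, -0.31 and -0.60, with a mean of -0.56 (SE 0.08, limma adjusted p 0.00807), on arrays where Ces1e was between 1.90 and 2.18. Kdelr3, a receptor that returns proteins to the endoplasmic reticulum, had a mean of -0.70, which was -0.25 without background subtraction and -1.20 with the scanner's processed signals. The folding enzyme Pdia6 had -0.90, while the chaperone Hspa5 rose by 0.60.

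**Figure D5:**
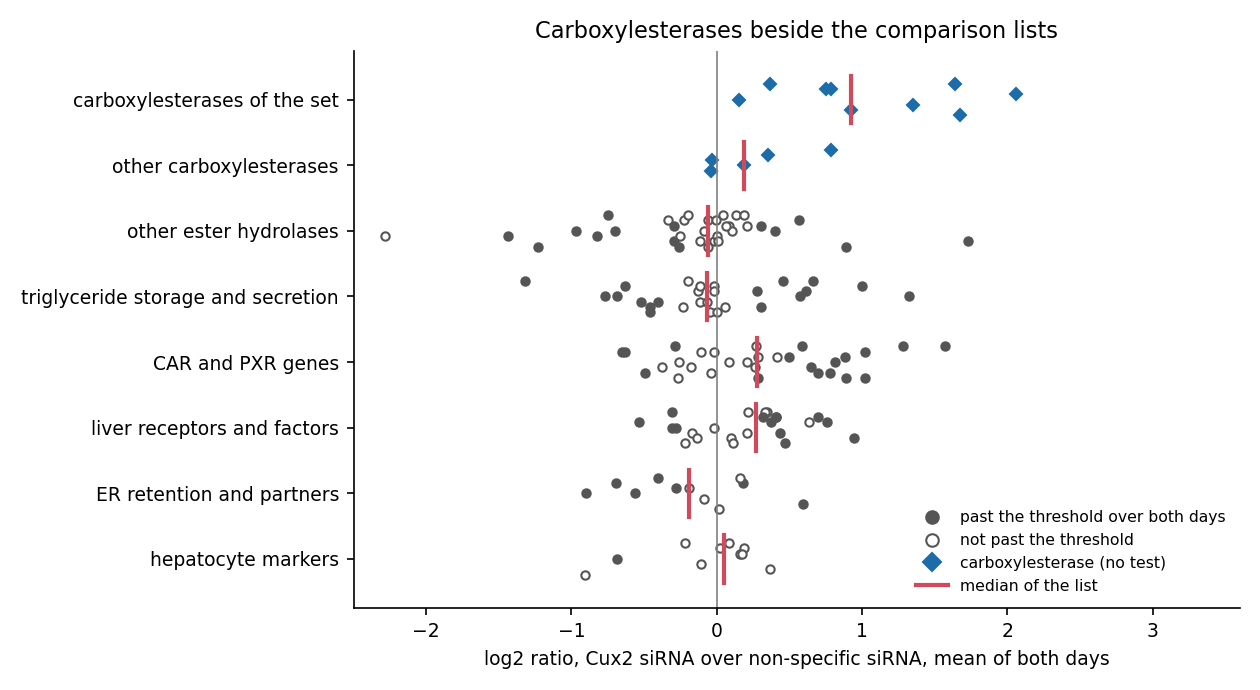
Mean log2 ratio over both days (horizontal axis) of each gene in the carboxylesterase set, the other carboxylesterases and the comparison lists (rows), with the median of each list as a red line. Filled points passed the limma threshold over both days, open points did not, and blue diamonds are carboxylesterases, which carry no test.

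Markers of other cells moved beside these ratios. Macrophage markers (9 of 10 measured) had medians of -0.42, -0.83, -0.47 and -0.70, with summed levels of 34145 to 44015 in treated and 60562 to 63466 in control channels. Over both days 7 of these 9 fell. For this and the marker counts that follow, 14.8% of all genes rose and 16.3% fell. Neutrophil markers (6 of 6) had medians of -0.50, -0.46, -0.71 and -0.70, with 4 falls and sums of 1966 to 3513 in treated against 11878 to 16871 in control channels. Stellate cell markers (6 of 6) had medians of -0.38, -0.24, -0.35 and -0.01, with 2 rises, 3 falls and sums of 25630 to 36671 against 44088 to 47658. Lymphocyte markers (7 of 7) had medians of -0.08, -0.10, -0.02 and -0.20, with 2 falls and sums of 1328 to 1621 against 1799 to 2206. For these 4 cell types the treated sums lay below the control sums on all arrays. Exocrine pancreas markers (12 of 13) had medians of -2.69, -3.55, 0.63 and -3.50, with 4 falls and sums of 12610 to 50164 against 31955 to 82809, on arrays where the median of the 9 carboxylesterases was 1.01, 1.13, 1.15 and 1.18. Hepatocyte markers had medians of 0.22, -0.54, 0.38 and -0.42, with 0 rises and 1 fall. Their summed levels overlapped (1327500 to 1886600 treated, 1324600 to 2036600 control). Bile duct markers (5 of 5) had medians of -0.01, 0.04, 0.21 and 0.23, with 1 rise and 0 falls. Intestinal markers, from a tissue that also expresses Ces2 genes, had Vil1, Fabp2 and Lgals4 measured of 6, with 1 rise (Vil1) and 0 falls. Their medians were -0.33, 0.10, 0.37 and 0.72 on arrays where Ces2b lay between 1.32 and 2.33. The part of these marker lists in the carboxylesterase ratios was not tested.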

How the data were processed

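RNA of liver pools was measured on 4 Agilent 2-colour arrays of 1 slide, with Trizol extraction and 1 round of aminoallyl amplification per the labels' protocols. The deposited intensity values are median spot and background signals. Bright spots carry readings scaled up from a low-gain scan. For the probe standing for a gene, all 8 channel readings were scaled up for Ces1c, Ces1d and Ces1f. For Ces1e and Ces1g 6 of 8 were, for Ces2e 4 and for Ces2a 2, so some ratios may mix the 2 kinds of reading. Per the file headers the scanner software was Agilent Feature Extraction, version 10.7.1.1. The scanner's processed intensity values, background-subtracted and dye-normalized per the file headers, served as an alternative. The authors' deposited table holds log10 ratios, equal within 1e-05 to the scanner's log ratio, turned to treated over control, for all 45018 features on every array. Its columns have a median of 0.

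Values were computed from the deposited intensities with limma 3.58.1 in R 4.3.3: normexp with an offset of 50, loess within each array with the 1639 control spots at weight 0, spots averaged per probe, and probes kept when well above background in at least 2 of 8 channel readings (31764 kept). Channel levels were brought to a common scale between arrays by Aquantile. Probes were named by RefSeq accession (23374 of 41174 matched, 56.8%), the scanner tables used here holding no other name, and the brightest kept probe stands for a gene. One lmFit and eBayes fit over the 4 arrays gave a mean per day, with 2 residual degrees of freedom and 2.78 from the prior. Calls used p-values adjusted by Benjamini and Hochberg over the 25090 genes, with a threshold of 0.05. The fit was tested on simulated data with independent noise on each array, without a dye gap or shared control pools. That test does not show how the p-values behave where these are present. Motifs and alignments used Biopython 1.88.

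The carboxylesterases and the comparison and marker lists were chosen with earlier results of these data known. Named are all carboxylesterases, Cux2, up to 4 genes per comparison list with the largest mean over both days among those past the threshold and alike in sign on all 4 arrays, and the 5 nearest profiles. One gene that this rule names is not reported here. Mttp, Cyp2b10, Cyp3a11, Cyp2b9, Nr1i2 and Alb were named after their values were seen. P-values measure the spread between these pools, dye effects included. The fit took the 4 arrays as independent, although the control pools recur on both days. The SEs and p-values over both days may therefore overstate the precision. The number of arrays limits the precision.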

Additional observations from a re-analysis of the deposited data

How the results depend on the processing

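Of the means of the 9 genes over both days, only that of Ces1c turned sign in any alternative run, to -0.03 with 1 array left out. Of the other 5 carboxylesterases, the mean of Ces3b turned to 0.06 without background subtraction. That of Ces5a turned to 0.04 with 1 array left out. Of the single values of the 9 genes that an alternative changed at all, 189 moved by less than the spread between arrays and 6 by more. Of those of the other 5 carboxylesterases 73 moved by less and 27 by more. Runs that left out 1 array could only count as less, since dropping 1 array always moves a mean by less than that spread. Their part of these counts therefore says nothing about stability. Counts of genes past the threshold depended on the processing. Without background subtraction day 8 gave 2117. The scanner's processed signals gave 2004 at day 5 and 1475 at day 8, a carboxylesterase median of 0.99 at day 8, and 7 receptors and factors and 4 endoplasmic reticulum genes past the threshold. The authors' log10 ratios gave 1994, 1463, 0.99, 7 and 4 in the same order. Median centring gave 5 genes at day 5 (1 rise, 4 falls), 3 at day 8 (0 rises, 3 falls) and 269 over both days (87 rises, 182 falls), a carboxylesterase median of 0.95 at day 8, and 2 ester hydrolases, 0 triglyceride genes, 2 CAR and PXR genes, 0 receptors and factors and 0 endoplasmic reticulum genes. The replicate number is the dye orientation. With it as a block, day 5 gave 8226 genes and day 8 7447, and 8 of the 9 carboxylesterases were past the threshold on either day (beside 15.2% and 14% of all genes as rises) and over both days (22.1%). The gap between replicates correlated between the days with r = 0.50 across 25090 genes, which are not independent, and 2 pairs do not show that the numbers pair the pools. Leaving out 1 array gave 239 to 3603 genes at day 5, 137 to 2472 at day 8 and 3878 to 5504 over both days. Carboxylesterase medians were then 0.91 to 1.13, 0.93 to 1.18 and 0.90 to 1.05, and the lists had 9 to 12 ester hydrolases, 11 to 16 CAR and PXR genes, 4 to 12 receptors and factors and 4 to 6 endoplasmic reticulum genes past the threshold. With 1 array left for a day, that array was assumed to vary like those of the other day, and the day held 1 dye orientation only.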
